A study of Mus musculus with 8 samples.

Results

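The subunit genes of oxidative phosphorylation were examined in mouse embryonic stem (ES) cells carrying edited alleles of Tbxt, the T-box transcription factor gene of the primitive streak and tail. The members were chosen by gene name: protein-coding genes whose symbols start with Nduf and a following a, b, c, s or v, the 4 Sdh genes, and symbols starting with Uqcr, Cox4 to Cox8 or Atp5, with the protein-coding genes of the mitochondrial genome kept as a separate group. This gave 93 nuclear and 13 mitochondrial genes with counts, that is 106 of 48440 genes in the tables. Of these, 91 nuclear and all 13 mitochondrial members had enough reads to be tested, among 17049 tested genes. The nuclear members that were not tested were Cox8b, with 0 or 1 read in a library, and Cox7b2, with 2 to 9 reads. Among the tested nuclear members, 36 encode subunits of complex I, 8 its assembly factors, 4 subunits of complex II, 8 of complex III, 18 of complex IV and 17 belong to complex V.

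All cells derived from the MK6 mouse ES cell line of C57BL/6J background and were collected on day 1 of differentiation in vitro. The 4 genotypes were compared with 2 RNA libraries each: wild-type, heterozygous deletion of Tbxt exon 6 (Tbxt Δexon6/+), homozygous deletion of exon 6 (Tbxt Δexon6/Δexon6), and homozygous insertion of the human AluSx1 and AluY elements in the introns flanking exon 6 (Tbxt insASAY/insASAY). In hominoids this pair of elements flanks the same exon and accompanies transcripts that lack it. The homozygous deletion libraries came from different clones, per the methods, and for the other genotypes the sources used here do not say whether the libraries are separate clones, so the p-values measure the spread between these libraries only. The deletion and the insertion present on both alleles are together called the homozygous lines below, and the libraries of the 3 mutants are also named by their change alone (heterozygous deletion, homozygous deletion, insertion).

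Oxidative phosphorylation passes electrons from NADH and succinate through complexes I to IV to oxygen and uses the proton gradient built on the way to drive ATP synthase, complex V. Complexes I, III, IV and V are each assembled from proteins of both genomes, while complex II is encoded by nuclear genes alone. The mitochondrial genome is copied into long transcripts from both of its strands, which are then cut into messenger, transfer and ribosomal RNAs. Pluripotent cells rely strongly on glycolysis, and mitochondrial respiration is known to change as they leave that state.

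Where the reads of the mitochondrial members could come from was examined first, because nuclear chromosomes carry copies of the mitochondrial genome. A stretch of mouse chromosome 1 from 24611535 to 24616197, on the minus strand, holds 7 annotated copies, and chromosome 2 holds a copy of mt-Co1 named Gm13340. The start of mt-Atp6, subunit a of ATP synthase, and of its chromosome 1 copy Gm10925 are shown because all 678 aligned bases were the same.
mt-Atp6: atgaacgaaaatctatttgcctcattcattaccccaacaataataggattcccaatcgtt
Gm10925: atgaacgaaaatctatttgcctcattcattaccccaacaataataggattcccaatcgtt
A window of mt-Co1, the catalytic subunit of complex IV, and of its chromosome 2 copy is shown because here the sequences can be told apart, with the bases that differ in capitals (4 of 60 in this window and 37 of 1545 in the whole gene).
mt-Co1: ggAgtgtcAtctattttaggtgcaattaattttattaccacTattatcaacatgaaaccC
Gm13340: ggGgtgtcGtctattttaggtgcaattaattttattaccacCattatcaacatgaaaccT
No copy at 97% identity or more over at least 100 bases was annotated for mt-Nd1, the complex I subunit whose level differed most between genotypes, and its first 60 bases are shown as the sequence behind that result.
mt-Nd1: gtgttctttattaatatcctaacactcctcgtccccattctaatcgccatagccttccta
Of all 150-base windows, the length of 1 read, 99.4% in mt-Co2 and in mt-Atp6, 99.8% in mt-Co3, 98% in mt-Nd4l, 97% in mt-Nd3, 59.2% in mt-Nd4 and 23.6% in mt-Co1 were the same as an annotated copy. The share was 0 in mt-Nd1, mt-Nd2, mt-Nd5, mt-Nd6, mt-Cytb and mt-Atp8. The levels of the first 7 genes are therefore uncertain, since a read that matches both places could not be given to either. For the last 6 the annotated copies set no such limit, but sequence outside annotated transcripts was not searched. mt-Atp8 starts at 7766, between mt-Co2 (to 7696) and mt-Atp6 (from 7927). The chromosome 1 copies of these neighbours lie at 24614885 to 24615565 and 24613974 to 24614651. Whether the stretch between these copies matches mt-Atp8 was not tested.

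For the nuclear members, promoters from 250 bases before to 50 bases after the start were read from RefSeq (GRCm38.p6), which gave a sequence for 76 of 93. The cores of known activators of respiratory genes were searched on both strands: GCGCATGCG for NRF1, CCGGAAG for the ETS family that includes GABPA, AAGATGGCG for YY1 and AAGGTCA for oestrogen-related receptors. The NRF1 core stood in 10 members, or 13.2%, against 1.95% of 27025 genes with a promoter. The ETS core stood in 18 members (23.7% against 9.93%), the YY1 core in 8 (10.5% against 1.64%) and the receptor core in 8 (10.5% against 5.38%), and the cores can overlap other motifs. Altogether 34 of the 76 had at least 1 of them. Promoters are shown for Cox6a1, a complex IV subunit that was lower in all 3 mutant lines, for Ndufaf4, a complex I assembly factor that was higher in all 3, and for Atp5l, subunit g of ATP synthase, which was lower in Tbxt Δexon6/+ cells. All 3 hold an NRF1 core. The motif letters are in capitals, read along the gene's strand.
Cox6a1, chr5:115348909-115349208, minus strand: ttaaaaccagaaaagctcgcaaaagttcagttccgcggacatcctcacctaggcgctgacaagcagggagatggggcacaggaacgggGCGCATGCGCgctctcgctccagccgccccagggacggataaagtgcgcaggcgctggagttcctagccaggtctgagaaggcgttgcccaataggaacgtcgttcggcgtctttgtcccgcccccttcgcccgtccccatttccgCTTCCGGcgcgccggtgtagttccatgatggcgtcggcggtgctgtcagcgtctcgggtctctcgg
Ndufaf4, chr4:24897833-24898132, plus strand: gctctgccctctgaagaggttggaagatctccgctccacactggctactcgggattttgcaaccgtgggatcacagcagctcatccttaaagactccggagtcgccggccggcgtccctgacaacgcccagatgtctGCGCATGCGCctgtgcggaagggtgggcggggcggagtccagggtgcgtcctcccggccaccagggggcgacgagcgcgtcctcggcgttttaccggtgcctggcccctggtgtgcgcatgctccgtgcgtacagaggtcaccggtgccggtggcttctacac
Atp5l, chr9:44920693-44920992, minus strand: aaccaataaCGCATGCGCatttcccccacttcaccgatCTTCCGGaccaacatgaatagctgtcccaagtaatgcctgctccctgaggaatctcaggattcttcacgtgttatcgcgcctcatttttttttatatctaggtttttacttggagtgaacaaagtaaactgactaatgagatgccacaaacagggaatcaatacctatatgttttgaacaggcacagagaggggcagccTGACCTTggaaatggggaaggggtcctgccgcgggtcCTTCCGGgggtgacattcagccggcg
Members with a core were counted by direction at the threshold given below for all genes, at which 18.3% of all tested genes were higher and 17.1% lower than wild-type in the homozygous deletion, 15.4% and 16.2% in the heterozygous deletion and 23.2% and 24.1% in the insertion line. With the NRF1 core, in that order of lines, 1 was higher and 6 lower, 1 and 4, and 1 and 4 of 10. With the ETS core it was 1 and 7, 0 and 6, and 2 and 5 of 18. With the YY1 core it was 1 and 4, 1 and 0, and 1 and 3 of 8, and with the receptor core 0 and 3, 0 and 3, and 1 and 3 of 8. A member can hold more than 1 core.

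The libraries held 24618587 to 28445952 reads on genes. Tbxt itself was low at this time, with 42 and 47 reads in wild-type, 22 and 26 in homozygous deletion, 39 and 54 in heterozygous deletion, and 29 and 30 in insertion libraries. A gene count does not show which exons were read, so it does not check the edited alleles. All 12 pluripotency markers were tested, and their summed level was 1686 to 1743 CPM (read counts scaled to a common library size) in wild-type libraries and 1165 to 1436 in the mutant libraries, where 6 to 8 of the 12 were lower and 2 were higher. All 4 tested neural progenitor markers were higher in Tbxt Δexon6/+ cells, where the 5 markers summed to 38.7 and 39.3 CPM against 9.81 to 13.2 in the other libraries. The 10 fibroblast feeder markers summed to 64.0 to 70.8 CPM in wild-type, 49.8 to 49.9 in homozygous deletion, 69.2 to 73.2 in heterozygous deletion and 42.1 to 42.8 in insertion libraries. The 9 primitive streak markers summed to 14.1 to 27.3 CPM over all libraries, the 5 primitive endoderm markers to 10.4 to 18.2 CPM, and no marker of any list was at 0 in every library. The part of these markers in the results below was not tested, and in bulk RNA fewer cells of a type and less RNA per cell cannot be told apart.

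In wild-type cells the members spanned a wide range. Per kilobase of exon, mt-Co1 had the highest level at 7740 CPM per kb, followed by mt-Cytb, the complex III subunit cytochrome b, at 2614 and mt-Nd1 at 2313. mt-Nd4l was the lowest mitochondrial member at 34.0 CPM per kb. The order of the mitochondrial members is uncertain, because reads that match a nuclear copy could not be placed. Of the windows of mt-Co2, mt-Co3, mt-Atp6, mt-Nd3 and mt-Nd4l 97% to 99.8% match an annotated copy, against 0 for mt-Cytb and mt-Nd1. Among nuclear members the beta subunit of ATP synthase, Atp5b, was the highest at 515 CPM per kb, with Cox4i1 at 346, Cox8a at 341 and Cox6a1 at 294. The median was 51.5 CPM per kb for complex I subunits, 67.5 for complex II, 80.1 for complex III, 95.2 for complex IV with its untested members included, and 78.4 for complex V. The assembly factors of complex I had a median of 10.6 CPM per kb, below that of the subunits they build. Ndufb2, an accessory subunit of complex I, was listed at 0.349 CPM per kb. It overlaps the protein-coding gene Gm42420 on the same strand by 145 bases, or 2.6% of its exon bases.

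**Figure D1:**
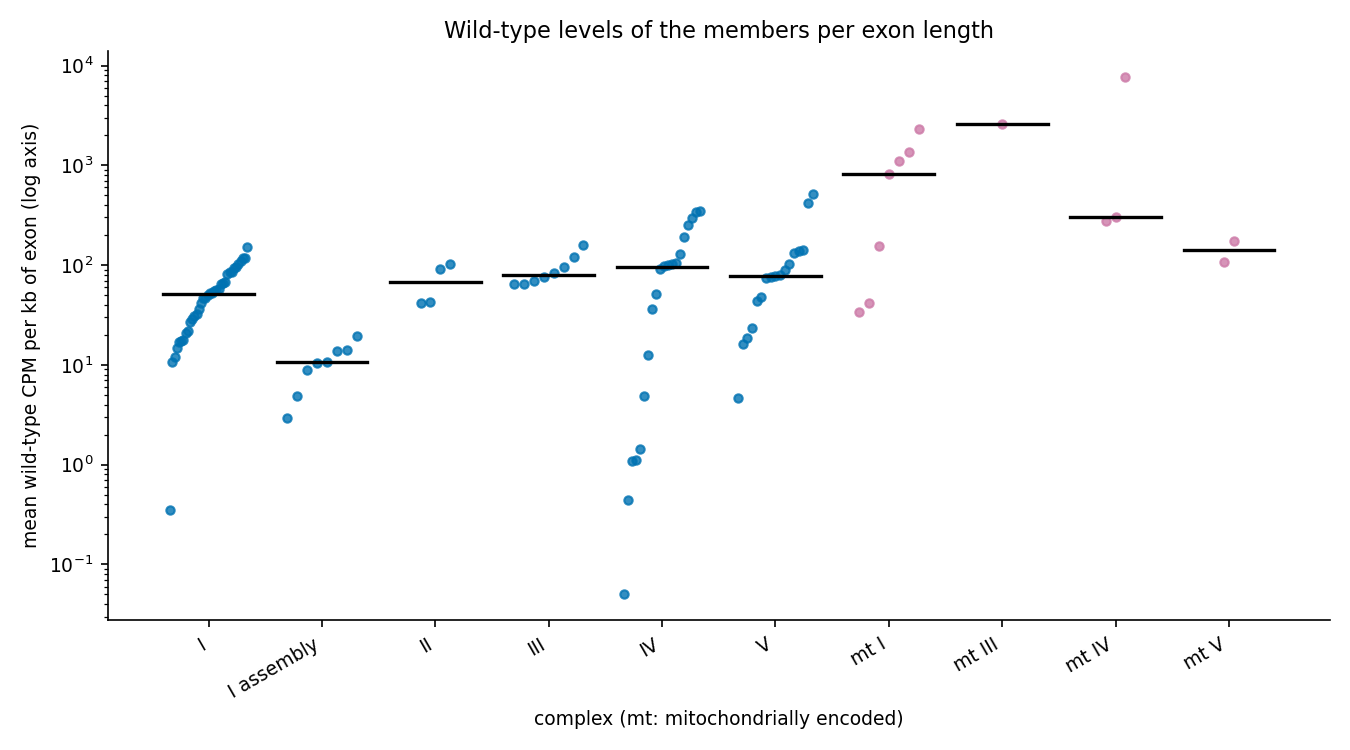
Mean level of each member in the wild-type libraries, in CPM per kilobase of exon on a log10 axis, by complex and by genome, 1 point per gene and a bar at the median. The mitochondrial members mt-Co1, mt-Cytb and mt-Nd1 sit at 7740, 2614 and 2313 CPM per kb, above every nuclear member, the highest of which was Atp5b at 515. Reads matching a nuclear copy could not be placed, so the order among mitochondrial members is uncertain.

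The mitochondrial members took 2.33% and 2.07% of all gene reads in wild-type libraries. They took 2.11% and 1.52% in homozygous deletion, 1.43% and 1.85% in heterozygous deletion, and 2.80% and 2.30% in insertion libraries. The 2 homozygous deletion clones lay on both sides of the lower wild-type library, both heterozygous libraries lay under it, and the insertion libraries overlapped the wild-type range at its upper end (2.20% ± 0.185 in wild-type, 1.81% ± 0.412, 1.64% ± 0.301 and 2.55% ± 0.351 in the 3 mutants, SD, n = 2). Messenger RNA was selected by poly(A) tail, so this share counts polyadenylated mitochondrial RNA and does not measure mitochondrial genomes. The nuclear members took a narrower share, 1.30% and 1.29% in wild-type, 1.22% and 1.17% in homozygous deletion, 1.30% and 1.31% in heterozygous deletion and 1.26% in both insertion libraries. Of the mitochondrial member reads, mt-Co1 alone held 52.7% to 54.6% in wild-type and Tbxt Δexon6/+ libraries, 45.5% and 49.0% in Tbxt Δexon6/Δexon6 and 43.4% and 43.5% in Tbxt insASAY/insASAY libraries. These mitochondrial shares cover only the reads that could be placed, without those that also match a nuclear copy.

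Each member was then compared between genotypes by edgeR's quasi-likelihood test, with TMM-scaled counts, and called higher or lower at an adjusted p under 0.05 over all tested genes. Changes are given as log2 fold change ± SE, and the study's second threshold, a log2 fold change past 0.5, is counted separately. The 3 comparisons with wild-type share the wild-type libraries, so their results are not independent of each other.

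In Tbxt insASAY/insASAY cells mt-Nd1, mt-Nd2 and mt-Nd3, 3 of the 7 mitochondrial genes for complex I, were higher than wild-type, and the other 4 did not pass the test. Of the 13 mitochondrial members 5 were higher and 0 lower than wild-type, where 23.2% of all tested genes were higher and 24.1% lower, and 3 of the 5 also passed the second threshold, as did 21.3% of all tested genes in either direction. The median change of the 13 was 0.27, against -0.01 over all tested genes. mt-Nd1, a membrane subunit of complex I, had 2329 and 2099 CPM in wild-type and 4288 and 3467 CPM in Tbxt insASAY/insASAY libraries. Both insertion libraries lay above every other library of the series, and the change was 0.81 ± 0.112 (adjusted p = 9.29e-05). mt-Nd2, the next member along the genome, also encodes a subunit of the membrane arm of complex I. It had 1206 and 1087 CPM in wild-type and 1957 and 1611 in insertion libraries. The change was 0.64 ± 0.112 (adjusted p = 0.000513), again without overlap. mt-Atp8, a small subunit of ATP synthase, changed by 0.56 ± 0.103 (adjusted p = 0.000728), from 22.4 and 20.99 to 33.8 and 30.1 CPM. mt-Nd3 (0.41 ± 0.089, adjusted p = 0.00223) and mt-Atp6 (0.30 ± 0.082, adjusted p = 0.00978) were also higher, and most of their windows match a nuclear copy. The mt-Atp6 call was lost with offsets for GC content and exon length, without the second wild-type library and without the first insertion library (adjusted p of up to 0.14). The remaining members, with changes of -0.15 to 0.28, did not pass the test.

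In Tbxt Δexon6/+ cells mt-Nd1 and mt-Nd2 were lower than wild-type, the opposite of their direction in the insertion line, and mt-Nd5 and mt-Nd6 were lower too, while the other 3 mitochondrial genes for complex I did not pass the test. Here 5 mitochondrial members were lower and 1 higher, where 16.2% of all tested genes were lower and 15.4% higher, and the median of the 13 was -0.42 against -0.001 over all tested genes. mt-Nd1 fell to 1241 and 1573 CPM, both under the lowest wild-type value, a change of -0.65 ± 0.112 (adjusted p = 0.000682). mt-Nd2 had 699 and 889 CPM, a change of -0.53 ± 0.113 (adjusted p = 0.00295, and 0.05 without the first Tbxt Δexon6/+ library). mt-Nd5, a proton-pumping subunit of complex I, had 2605 and 2362 CPM in wild-type and 1492 and 1890 in Tbxt Δexon6/+ libraries (-0.55 ± 0.141, adjusted p = 0.00876). mt-Cytb went from 3203 and 2779 to 1967 and 2465 CPM (-0.43 ± 0.138, adjusted p = 0.0289). The calls of mt-Nd5 and mt-Cytb were lost by DESeq2, without the first wild-type library and without the first Tbxt Δexon6/+ library, and that of mt-Cytb also with GC and length offsets (adjusted p of up to 0.12 and 0.264). All 5 lower members, with mt-Nd6 described next, were among the 6 without an annotated near-identical copy. The remaining gene of these, mt-Atp8, was higher at 25.3 and 31.6 CPM (0.39 ± 0.105, adjusted p = 0.0123), a call lost without the second wild-type or the second Tbxt Δexon6/+ library (adjusted p of up to 0.184). Its exon shares 43 bases, or 21.1% of its length, with mt-Atp6 on the same strand.

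mt-Nd6 is the only member encoded on the light strand. It had 17.97 and 25.5 CPM in wild-type and 11.3 and 11.9 CPM in Tbxt Δexon6/+ libraries, a change of -0.91 ± 0.178 (adjusted p = 0.00172). Only 2.89% of all reads over mt-Nd6 lay on its own strand, 290 to 746 reads a library against 11353 to 23180 on the opposite strand, where the long heavy-strand transcript runs. For the other 12 members 98.4% to 99.7% of the reads lay on the gene's strand. A small error in the strand of a read therefore weighs more on mt-Nd6 than on any other member, and whether such reads enter its count was not tested.

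In Tbxt Δexon6/Δexon6 cells 0 mitochondrial members were higher and 2 lower, where 18.3% of all tested genes were higher and 17.1% lower, and the median was -0.19 against -0.01 over all tested genes. mt-Co1 had 12740 and 11180 CPM in wild-type and 10400 and 6927 in the deletion clones, a change of -0.47 ± 0.162 (adjusted p = 0.0405). mt-Co2, which carries the copper centre that takes electrons from cytochrome c, had 204 and 172 CPM in wild-type and 169 and 106 in the clones (-0.45 ± 0.163, adjusted p = 0.0448). In both genes the second clone lay far under the first. Both calls were lost by DESeq2 (0 calls among the 13), without the second clone, and without the first or without the second wild-type library, with adjusted p of up to 0.224 and 0.28 over the alternatives. mt-Nd1 did not pass the test in these clones, at 2486 and 2115 CPM (0.06 ± 0.112, adjusted p = 0.731).

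**Figure D2:**
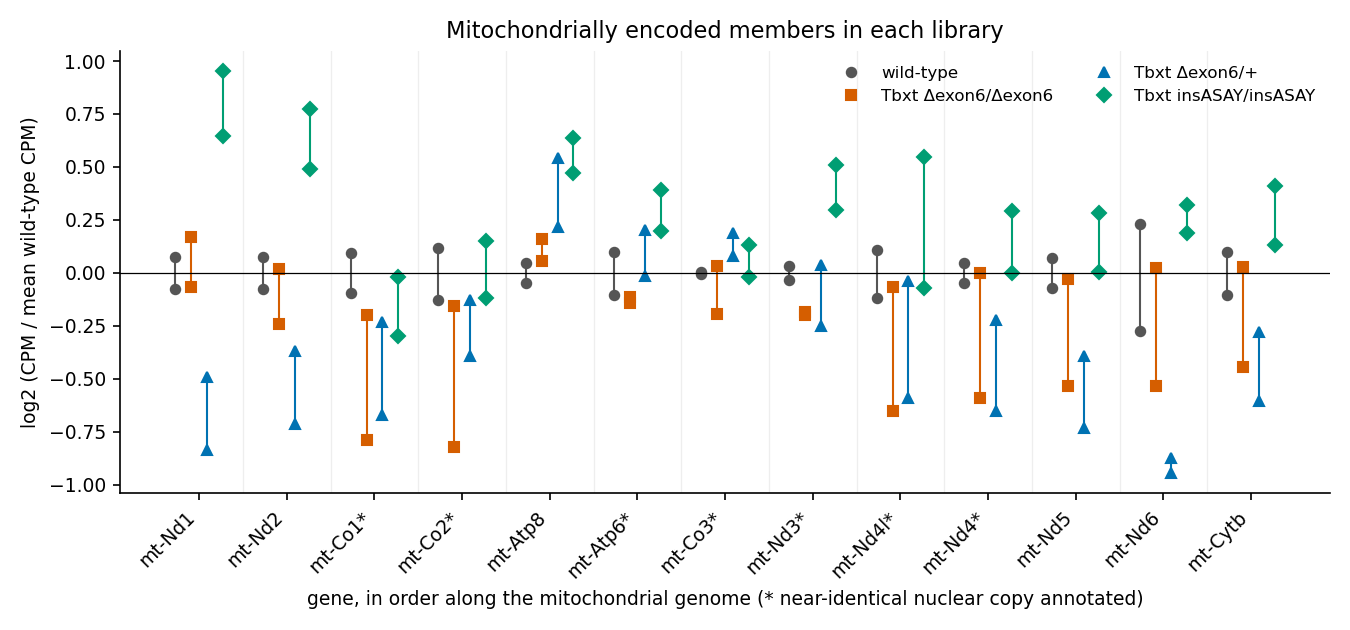
Level of the 13 mitochondrial members in each library, as log2 of TMM-scaled CPM over the wild-type mean. Each library is 1 point, a line joins the 2 libraries of a genotype, and a star marks genes with an annotated near-identical nuclear copy. mt-Nd1 was at 2099 and 2329 CPM in wild-type, 1241 and 1573 in Tbxt Δexon6/+ and 3467 and 4288 in Tbxt insASAY/insASAY libraries, while mt-Co3 stayed between 206 and 268 CPM in all 8 libraries.

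Since the total of mitochondrial reads varied between libraries of 1 genotype, the members were also set against mt-Co1 in the same library. Reads on mt-Nd1 per read on mt-Co1 numbered 0.183 and 0.188 in wild-type, 0.239 and 0.305 in homozygous deletion, 0.165 and 0.155 in heterozygous deletion and 0.363 and 0.356 in insertion libraries. The ratio was steadier within wild-type and insertion lines than the level of mt-Nd1 itself, it separated all 4 genotypes without overlap, and its mean in insertion libraries was 1.94 times that of wild-type. For mt-Nd2 the ratio was 0.0947 and 0.0972 in wild-type and 0.166 in both insertion libraries, 1.73 times the wild-type mean. For mt-Cytb it was 0.252 and 0.249 in wild-type and 0.337 and 0.336 in insertion libraries, and for mt-Nd5 0.205 and 0.211 against 0.256 in both. In Tbxt Δexon6/+ libraries the mt-Cytb ratio was 0.262 and 0.243, on both sides of wild-type. mt-Co1 is itself among the genes with a partial copy, so these ratios describe unequal change within a library and do not show which gene changed.

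**Figure D3:**
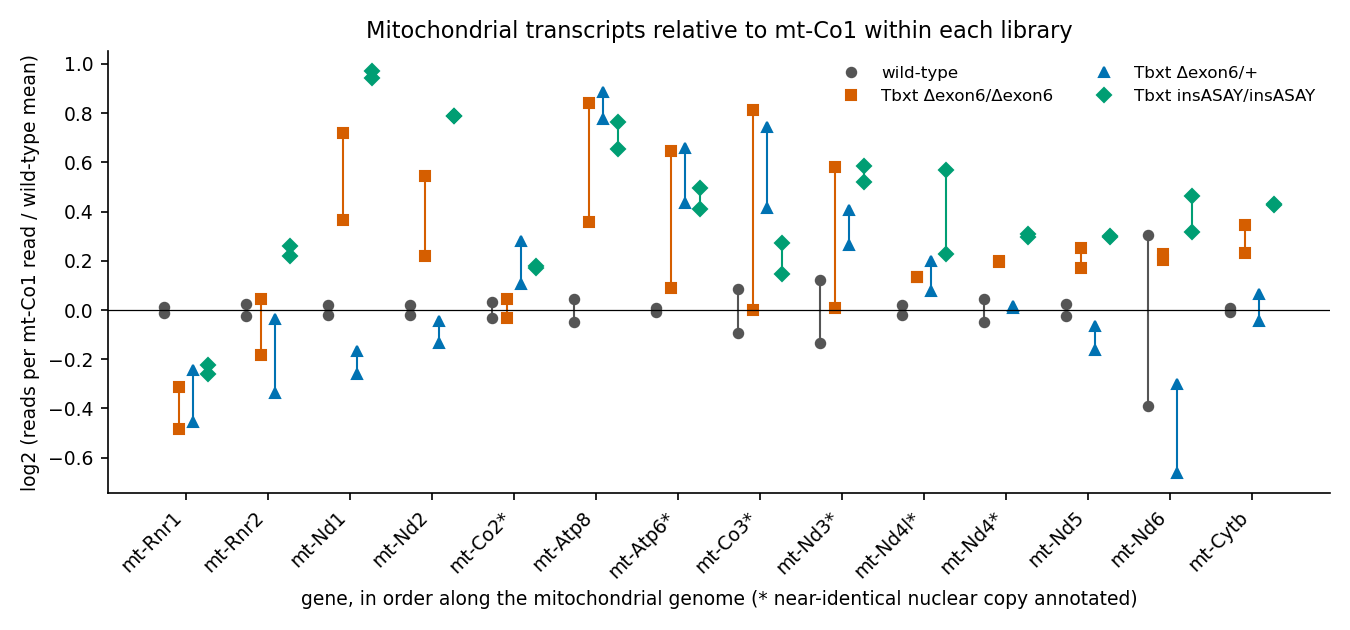
Reads on each mitochondrial member and on the ribosomal RNAs per read on mt-Co1, as log2 of the ratio to the wild-type mean, 1 point per library and a line joining the 2 libraries of a genotype. mt-Nd1 and mt-Nd2 had mean ratios of 1.94 and 1.73 times wild-type in Tbxt insASAY/insASAY libraries and 0.863 and 0.940 times wild-type in Tbxt Δexon6/+ libraries.

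The ribosomal RNAs of the mitochondrial genome, which lie ahead of mt-Nd1 on the same heavy-strand transcript, moved otherwise. mt-Rnr1, the small ribosomal RNA, was lower in all 3 lines: it had 362 and 324 CPM in wild-type, 214 and 160 in homozygous deletion, 182 and 213 in heterozygous deletion and 283 and 240 in insertion libraries (-0.88 ± 0.116, -0.80 ± 0.116 and -0.39 ± 0.115). mt-Rnr2, the large one, was lower in both deletion lines (-0.55 ± 0.116 and -0.64 ± 0.116) and at 0.09 ± 0.115 in insertion cells (adjusted p = 0.559). Poly(A) selection captures these RNAs only in part.

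The nuclear copies were counted as genes of their own and had reads in every library. Gm13340, the mt-Co1 copy, had 493 and 414 CPM in wild-type and 383 and 241 CPM in Tbxt Δexon6/Δexon6 libraries, a change of -0.54 ± 0.163 (adjusted p = 0.0209), beside -0.47 for mt-Co1. Gm28661, the mt-Co2 copy, changed by -0.52 ± 0.149 in the same line (adjusted p = 0.0161), and Gm28437, the mt-Co3 copy, by -0.32 ± 0.074 (adjusted p = 0.00512), while mt-Co3 was at -0.08 ± 0.071 (adjusted p = 0.433). Gm10925, the mt-Atp6 copy, changed by 0.25 ± 0.057 in Tbxt insASAY/insASAY cells (adjusted p = 0.00292), beside 0.30 for mt-Atp6. For the mt-Co2, mt-Co3 and mt-Atp6 pairs the reads of gene and copy cannot be told apart by sequence over most of their length. For mt-Co1, 23.6% of the 150-base windows were the same as an annotated copy.

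The nuclear members moved less per gene. In Tbxt Δexon6/Δexon6 cells 39 of the 91 tested were lower and 5 higher, where 17.1% of all tested genes were lower and 18.3% higher. In Tbxt insASAY/insASAY cells 38 were lower and 6 higher, where the background was 24.1% lower and 23.2% higher. In Tbxt Δexon6/+ cells 19 were lower and 7 higher, where it was 16.2% and 15.4%. The median changes were -0.14, -0.12 and -0.04, against -0.01, -0.01 and -0.001 over all tested genes. In all, 44 members were called in each homozygous line and 26 in the heterozygous line, where 35.4% (homozygous deletion), 47.3% (insertion) and 31.6% (heterozygous deletion) of all tested genes were called. In the same order only 3, 5 and 3 members also passed the second threshold, where 12.7%, 21.3% and 13.5% of all tested genes did. The called count in Tbxt Δexon6/Δexon6 cells was 28 by DESeq2, 14 without the first and 20 without the second wild-type library, and 24 without the second clone. In Tbxt insASAY/insASAY cells it was 27 without the first wild-type and 28 without the second insertion library, and in Tbxt Δexon6/+ cells 13 to 15 without any 1 library. With offsets for GC content and exon length the split in Tbxt Δexon6/+ cells turned from 7 higher and 19 lower to 13 higher and 10 lower, with a median of 0.006.

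Setting the 3 comparisons side by side, 8 nuclear members were lower in every line: Cox5b, Cox6a1, Cox6b2, Cox7a1, Cox7c and Cox8a of complex IV, and Ndufb4 and Ndufb9 of complex I. A single member, Ndufaf4, was higher in every line. Another 23 were lower in both homozygous lines and did not pass the test in Tbxt Δexon6/+ cells. Ndufa6 and Sdha were lower in the homozygous lines and higher in Tbxt Δexon6/+ cells, Uqcrfs1 was the reverse, and 29 members passed the test in no line. The share of all tested genes with each of these patterns was not counted, and the comparisons share the wild-type libraries. These counts therefore do not show whether the members differ from other genes. The heterozygous-line calls of Ndufa6, Sdha and Uqcrfs1 were each lost when any 1 of the 4 libraries compared was left out, with adjusted p of up to 0.17, 0.286 and 0.148 over the alternatives. In homozygous deletion and insertion cells Ndufa6 kept its call under 8 and 9 of 13 alternatives, and Sdha under 9 and 11. In homozygous deletion cells both calls were lost with only the 2 genotypes compared, and that of Ndufa6 also by DESeq2. Uqcrfs1 kept its calls in both homozygous lines under every alternative run. Of the members called alike in every line, Cox7c and Ndufb9 kept their calls under every alternative run. Cox5b was not followed gene by gene through the alternatives. It had 159.7 and 152.6 CPM in wild-type and 136.3 to 144.5 in the mutant libraries, and a 99.2% identical copy, Gm11273, is annotated. Ndufb4 kept its call under 6, 8 and 11 of 13 alternatives in homozygous deletion, heterozygous deletion and insertion cells (adjusted p of up to 0.298, 0.308 and 0.111), and the call was lost by DESeq2 in both deletion lines and with the replicate block in the first. Ndufaf4 kept its call in homozygous deletion cells under 7 of 13, and it was lost by DESeq2, with only the 2 genotypes compared and with GC and length offsets, where its change was 0.19 (adjusted p of up to 0.147). With these offsets the changes of Cox8a were -0.10 and -0.19 in the deletion lines and that of Cox6a1 was -0.14 in the heterozygous line, and these 3 calls were lost. Calls of Ndufaf4, Cox6a1, Cox6b2, Cox7a1 and Cox8a were also lost in 1 or both deletion lines without a single library.

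**Figure D4:**
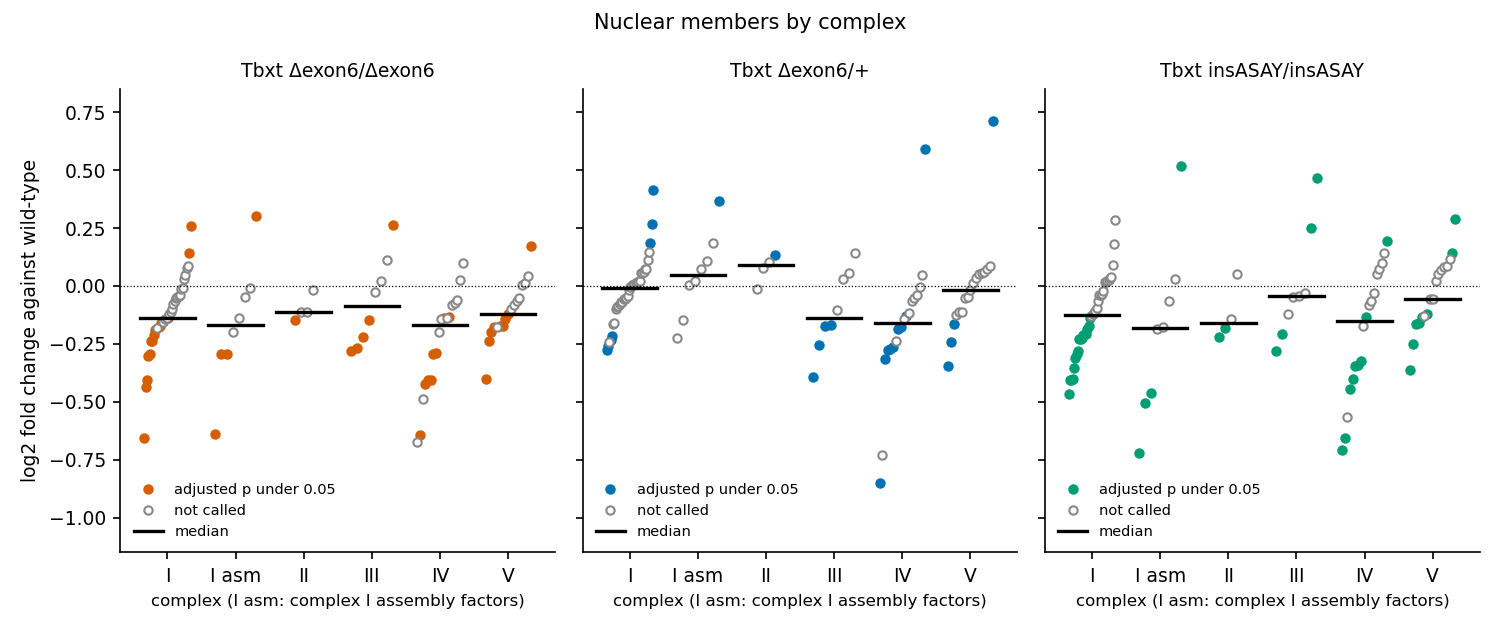
Change of each tested nuclear member against wild-type on the log2 scale, by complex, in the 3 mutant lines, with filled points for members at an adjusted p under 0.05, open points for the others and a bar at the median. Most filled points lay below 0 in the homozygous lines (39 of 44 for the deletion, 38 of 44 for the insertion), and Atp5f1 stood at 0.71 in Tbxt Δexon6/+ cells.

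Of the 36 nuclear subunits of complex I, 15 were lower and 2 higher in Tbxt Δexon6/Δexon6 cells, 17 were lower and 0 higher in Tbxt insASAY/insASAY cells, and 4 were lower and 3 higher in Tbxt Δexon6/+ cells. In the same order 47.2%, 47.2% and 19.4% of them were called, where 35.4%, 47.3% and 31.6% of all tested genes were. Among the 7 core subunits, which carry the flavin and the iron-sulphur clusters, 3, 2 and 1 were lower and 0 higher. The other calls fell on the 29 accessory subunits. Ndufb8, of the distal membrane arm, had 76.3 and 61.2 CPM in wild-type, 46.9 and 40.3 in homozygous deletion, 54.5 and 61.7 in heterozygous deletion and 49.96 and 49.6 in insertion libraries. It was lower in both homozygous lines (-0.66 ± 0.101, adjusted p = 0.000445, and -0.47 ± 0.099, adjusted p = 0.0019), and the heterozygous libraries overlapped wild-type. Ndufb9, another accessory subunit of the membrane arm, had 158 and 151 CPM in wild-type and 112 to 132 in the 6 mutant libraries, with no overlap in any line (-0.44 ± 0.050, -0.28 ± 0.050 and -0.40 ± 0.050). The annotation lets Ndufb9 share 201 exon bases with Gm49356, and Ndufb8 134 with Gm20538, on the same strand. Ndufs4, needed to dock the NADH-oxidising module, had 91.5 and 83.4 CPM in wild-type, 76.9 and 65.9 in homozygous deletion, 88.3 and 88.7 in heterozygous deletion and 68.2 and 63.6 in insertion libraries. Both homozygous lines lay under wild-type and the heterozygous libraries lay within it.

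Ndufa7, another accessory subunit, fell by a similar amount in both homozygous lines (-0.41 ± 0.075 and -0.40 ± 0.074) and was at -0.07 ± 0.074 in Tbxt Δexon6/+ cells (adjusted p = 0.513). Ndufa6, which binds the acyl carrier subunit Ndufab1, had 65.6 and 66.3 CPM in wild-type, 61.6 and 54.1 in homozygous deletion, 74.6 and 75.6 in heterozygous deletion and 56.2 and 57.5 in insertion libraries. Its libraries thus lay under wild-type in the homozygous lines and above it in the heterozygous line. The other rises in Tbxt Δexon6/+ cells were Ndufc1 (0.41 ± 0.070, adjusted p = 0.000624) and Ndufv3 (0.27 ± 0.068, adjusted p = 0.0091), and the largest falls after Ndufb9 were Ndufb4 (-0.26 ± 0.088) and Ndufa3 (-0.23 ± 0.076), both of the membrane arm. In Tbxt Δexon6/Δexon6 cells the 2 higher subunits were Ndufa5 (0.26 ± 0.083, adjusted p = 0.0285) and Ndufc2 (0.14 ± 0.049, adjusted p = 0.0395), and by DESeq2 neither call held.

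The assembly factors of complex I help to build it and do not stay in it, and 3 of 8 were lower and 1 higher in each homozygous line, with 0 lower and 1 higher in the heterozygous line. In all 50% of the 8 were called in each homozygous line and 12.5% in the heterozygous line. The shares of all tested genes were 35.4% (homozygous deletion), 47.3% (insertion) and 31.6% (heterozygous deletion). Ndufaf6 had 24.6 and 23.1 CPM in wild-type, 17.6 and 13.1 in homozygous deletion, 25.9 and 25.5 in heterozygous deletion and 15.4 and 13.5 in insertion libraries. It was lower in the homozygous lines by -0.64 ± 0.117 (adjusted p = 0.0014) and -0.72 ± 0.117 (adjusted p = 0.000287). Ndufaf5 and Ndufaf7, enzymes that modify core subunits, were also lower in both homozygous lines, by -0.29 ± 0.090 and -0.30 ± 0.084 in Tbxt Δexon6/Δexon6 and by -0.51 ± 0.091 and -0.46 ± 0.084 in Tbxt insASAY/insASAY cells. The Tbxt Δexon6/Δexon6 calls of both were lost with only the 2 genotypes compared, and that of Ndufaf5 also by DESeq2. Ndufaf4 went the other way, with 11.3 and 11.8 CPM in wild-type, 13.8 and 14.6 in homozygous deletion, 14.6 and 15.1 in heterozygous deletion and 17.3 and 15.7 in insertion libraries. All 6 mutant libraries lay above both wild-type libraries (0.30 ± 0.095, 0.37 ± 0.095 and 0.52 ± 0.093). The other 4 factors, Ndufaf1, Ndufaf2, Ndufaf3 and Ndufaf8, did not pass the test in any line, with changes of -0.23 to 0.07.

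Complex II links the tricarboxylic acid cycle to the chain. Sdha, its flavin-bearing subunit, had 372 and 389 CPM in wild-type, 355 and 331 in homozygous deletion, 410 and 425 in heterozygous deletion and 339 and 332 in insertion libraries. It was lower by -0.15 ± 0.048 and -0.18 ± 0.048 in the homozygous lines (adjusted p = 0.0283 and 0.00706) and higher by 0.14 ± 0.047 in the heterozygous line (adjusted p = 0.0453). Sdhc, a membrane anchor, was lower in Tbxt insASAY/insASAY cells (-0.22 ± 0.057, adjusted p = 0.00647). Sdhb, the iron-sulphur subunit, and Sdhd, the other anchor, passed the test in no line, with changes of -0.14 to 0.08.

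In complex III, 4 of 8 members were lower and 1 higher in Tbxt Δexon6/Δexon6 cells, 4 lower and 0 higher in Tbxt Δexon6/+ cells, and 2 lower and 2 higher in Tbxt insASAY/insASAY cells. In this order 62.5%, 50% and 50% of them were called, where 35.4%, 31.6% and 47.3% of all tested genes were. Uqcrfs1, the Rieske iron-sulphur protein, had 88.2 and 87.2 CPM in wild-type, 104 and 106 in homozygous deletion, 77.6 and 78.3 in heterozygous deletion and 104 and 105 in insertion libraries. Libraries of a line differed by little, and the homozygous lines lay above wild-type (0.26 ± 0.046 and 0.25 ± 0.046) while the heterozygous line lay under it (-0.17 ± 0.047). The large core proteins Uqcrc1 and Uqcrc2 were lower in both homozygous lines, Uqcrc1 by -0.27 ± 0.046 and -0.28 ± 0.046, and were at -0.10 ± 0.046 (adjusted p = 0.103) and 0.05 ± 0.049 (adjusted p = 0.45) in the heterozygous line. The Uqcrc2 call in the homozygous deletion was lost by DESeq2 and with only the 2 genotypes compared. Uqcrq, a small subunit next to cytochrome b, was lower in Tbxt Δexon6/+ cells, at 92.5 and 102 CPM against 134 and 122 (-0.39 ± 0.059, adjusted p = 0.000255), and at 0.02 and -0.05 in the homozygous lines. The small subunits Uqcr10 and Uqcr11 were lower in both deletion lines (-0.22 ± 0.055 and -0.26 ± 0.055, and -0.28 ± 0.061 and -0.17 ± 0.060). With GC and length offsets Uqcr10 was at -0.08 in the homozygous deletion and Uqcr11 at -0.08 in both lines, no longer called, and Uqcr11 in the heterozygous line kept its call under 6 of 13 alternatives. Without the first wild-type library all 4 of these calls were lost. Uqcrh, the hinge protein that holds cytochrome c1, rose in Tbxt insASAY/insASAY cells from 79.0 and 79.4 to 112 and 107 CPM (0.47 ± 0.075, adjusted p = 0.000269).

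Complex IV had the most members lower in Tbxt Δexon6/+ cells, 8 of 18 with 1 higher, and it had 8 lower in each homozygous line with 0 and 1 higher. The share called was 44.4% in homozygous deletion, 50% in heterozygous deletion and 50% in insertion cells. Of all tested genes 35.4%, 31.6% and 47.3% were called in these lines. Several of its subunits exist as a widespread and a tissue-restricted isoform, and both kinds were measured. Cox4i1, the widespread form of the largest nuclear subunit, had 560 and 513 CPM in wild-type, 414 and 395 in homozygous deletion, 484 and 542 in heterozygous deletion and 428 and 417 in insertion libraries. Both homozygous lines lay under wild-type (-0.41 ± 0.059, adjusted p = 0.000321, and -0.35 ± 0.059, adjusted p = 0.000392) and the heterozygous line overlapped it. Cox4i2, the hypoxia-linked form, had 0.734 to 1.38 CPM and passed the test in no line. Cox6a1 had 199 and 214 CPM in wild-type and 151 to 180 in the 6 mutant libraries, all under wild-type (-0.41 ± 0.058, -0.26 ± 0.058 and -0.40 ± 0.058). Its heart and muscle form, Cox6a2, was low at 3.25 and 3.39 CPM in wild-type, and it was higher in Tbxt Δexon6/+ cells at 5.53 and 4.46 CPM (0.59 ± 0.188, adjusted p = 0.029) and lower in Tbxt insASAY/insASAY cells at 2.37 and 1.68 CPM (-0.71 ± 0.213, adjusted p = 0.0149). The first of these calls did not hold by DESeq2, nor without either wild-type library or the first Tbxt Δexon6/+ library (adjusted p of up to 0.249). The second was lost without either wild-type library or the second insertion library (adjusted p of up to 0.146).

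Cox7a1, also the heart and muscle form of its subunit, had the largest fall among the nuclear calls, in Tbxt Δexon6/+ cells. Its level was 7.07 and 6.44 CPM in wild-type, 4.25 and 4.40 in the homozygous deletion, 3.94 and 3.56 in the heterozygous deletion and 4.77 and 3.81 in the insertion libraries. All 6 mutant libraries lay under wild-type (-0.64 ± 0.149, -0.85 ± 0.153 and -0.66 ± 0.149). Its widespread counterpart Cox7a2 was higher in Tbxt insASAY/insASAY cells (0.19 ± 0.054, adjusted p = 0.00959), and Cox7a2l, which joins complexes III and IV into supercomplexes, passed the test in no line. Cox6b2, known as the testis form, had 39.7 and 41.5 CPM in wild-type and 28.3 to 32.8 in the mutant libraries (-0.43 ± 0.074, -0.32 ± 0.073 and -0.45 ± 0.073). Cox6b1, its widespread form, was lower in Tbxt Δexon6/Δexon6 cells (-0.13 ± 0.046, adjusted p = 0.0376) and at -0.05 and -0.07 in the other lines. Cox7c had 288 and 285 CPM in wild-type and 221 to 244 in the mutant libraries, and Cox8a 198 and 224 against 163 to 186. Cox8c, Ndufa4l2 and Cox7b passed the test in no line, and Ndufa4, now counted with complex IV, was lower in Tbxt Δexon6/+ cells (-0.13 ± 0.046, adjusted p = 0.043). The Cox6b1 and Ndufa4 calls were lost by DESeq2 and with GC and length offsets.

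In complex V, 8 of 17 members were lower and 1 higher in Tbxt Δexon6/Δexon6 cells, 3 lower and 1 higher in Tbxt Δexon6/+ cells, and 6 lower and 2 higher in Tbxt insASAY/insASAY cells. In this order 52.9%, 23.5% and 47.1% of them were called, where 35.4%, 31.6% and 47.3% of all tested genes were. Of the 6 genes of the F1 head and the oligomycin-sensitivity subunit, 4 were lower in each homozygous line. Among them Atp5e, the small epsilon subunit of the rotor, changed the most, with 136 and 123 CPM in wild-type, 103 and 93.6 in homozygous deletion, 119 and 121 in heterozygous deletion and 102 and 100.2 in insertion libraries (-0.40 ± 0.060, adjusted p = 0.00041, and -0.36 ± 0.060, adjusted p = 0.000335, in the homozygous lines). Atp5j, coupling factor 6 of the peripheral stalk, went the other way in the same lines (0.17 ± 0.053 and 0.29 ± 0.053), and Atp5h, subunit d of that stalk, was lower (-0.20 ± 0.050 and -0.17 ± 0.050). The 3 genes for the same c-ring protein differed: in Tbxt insASAY/insASAY cells Atp5g2 was lower (-0.25 ± 0.043, adjusted p = 0.000436), Atp5g3 was higher (0.14 ± 0.044, adjusted p = 0.0171) and Atp5g1 was at 0.12 ± 0.048 (adjusted p = 0.0592). Atp5g3 kept its call under 9 of 13 alternatives, with changes of 0.08 to 0.18, and lost it with GC and length offsets. Atp5k and Atp5l, subunits e and g at the dimer interface, were lower in Tbxt Δexon6/+ cells, Atp5k by -0.24 ± 0.064 and Atp5l by -0.35 ± 0.048 (adjusted p = 0.000136) from 105 and 102 to 82.2 and 80.3 CPM. Atp5k was lower in Tbxt Δexon6/Δexon6 cells as well (-0.24 ± 0.064). This call was lost with GC and length offsets and without the first wild-type library, and the change was as small as -0.07 over the alternatives. The Tbxt Δexon6/+ call of Atp5k was lost without the first wild-type library and without either Tbxt Δexon6/+ library. Pseudogene copies of Atp5l held 9.82 reads per 100 of its own.

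The largest rise of a nuclear member in any line was that of Atp5f1, subunit b of the peripheral stalk. It had 331 and 327 CPM in wild-type, 342 and 322 in homozygous deletion, 529 and 548 in heterozygous deletion and 348 in both insertion libraries. The heterozygous libraries lay far above all others, with a change of 0.71 ± 0.044 (adjusted p = 2.18e-07). Atp5f1 lies on chromosome 3, at 105942698 to 105960099 (mm10, minus strand). In this line the 848 tested genes of that chromosome had a median change of 0.32, with 372 higher and 105 lower. This is 56.2% called, against 31.6% of all tested genes, whose median change was -0.001. Ndufc1 is on chromosome 3 as well (0.41), and so is Ndufb5, which was at -0.06 ± 0.054 (adjusted p = 0.481). Without the 3 members on chromosome 3, the count in Tbxt Δexon6/+ cells was 5 higher and 19 lower of 88. The chromosome's median was -0.01 in both other lines, and its part in the change of Atp5f1 was not tested.

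**Figure D5:**
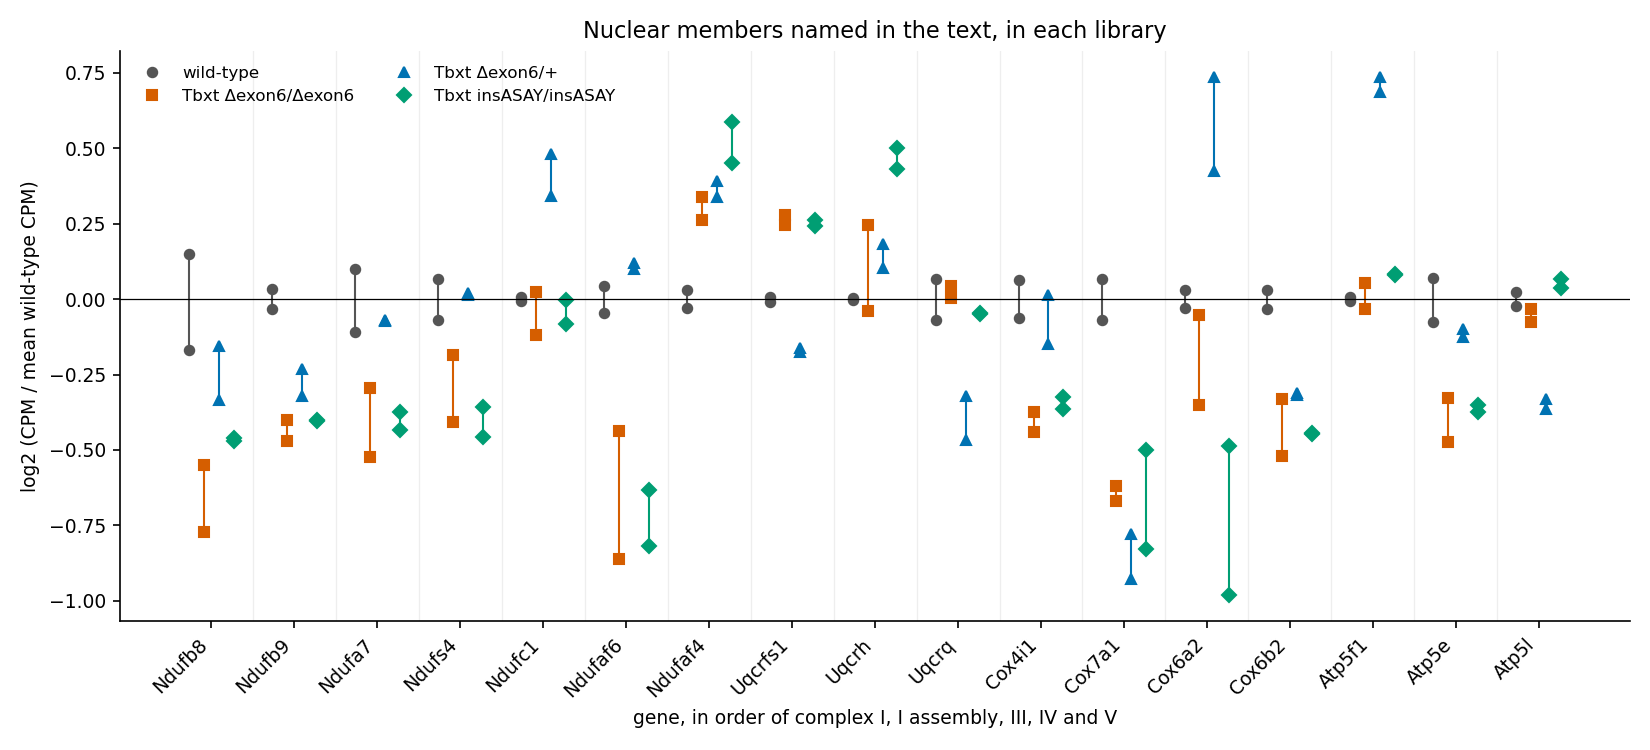
Level of 17 nuclear members named in the text in each library, as log2 of TMM-scaled CPM over the wild-type mean, with 1 point per library and a line joining the 2 libraries of a genotype. Atp5f1 stood at 529 and 548 CPM in Tbxt Δexon6/+ libraries against 322 to 348 in the others, and all 6 mutant libraries of Cox7a1 (3.56 to 4.77 CPM) lie under wild-type.

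Direct comparisons between the mutant lines gave the test of their differences. In the insertion line against the homozygous deletion line, 7 nuclear members were higher and 0 lower, where 5.6% of all tested genes were higher and 9.8% lower, 15.4% in all. The 7 were Uqcrh, Uqcr11, Atp5g1, Atp5g3, Atp5k, Cox6c and Cox7a2, with changes of 0.14 to 0.36, and without the second homozygous clone the count was 8 higher and 9 lower, while without the first insertion library it was 0 and without the second it was 2. Between Tbxt Δexon6/+ and Tbxt Δexon6/Δexon6 cells 31 were higher and 8 lower, where 22.9% and 24.2% of all tested genes were so. Between Tbxt insASAY/insASAY and Tbxt Δexon6/+ cells 15 were higher and 34 lower, where 26.8% and 26.1% were so. Complex I subunits showed 15 higher and 2 lower in the second of these comparisons and 2 higher and 18 lower in the last.

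Of the mitochondrial members, 6 were higher and 0 lower in Tbxt insASAY/insASAY than in Tbxt Δexon6/Δexon6 cells. Of all tested genes 5.6% were higher and 9.8% lower. Among the members mt-Nd1 was at 0.75 ± 0.112 and mt-Nd2 at 0.74 ± 0.113. Against Tbxt Δexon6/+ cells 7 members were higher in the insertion line and 0 lower, where 26.8% and 26.1% of all tested genes were so. All 7 were past the second threshold, which 27.5% of all tested genes passed. They were mt-Nd1 (1.46 ± 0.114, adjusted p = 6.08e-07), mt-Nd2 (1.17 ± 0.114), mt-Nd6 (1.17 ± 0.176), mt-Cytb (0.71 ± 0.138), mt-Nd5 (0.70 ± 0.141), mt-Nd4 (0.58 ± 0.160) and mt-Nd3 (0.51 ± 0.090). Between Tbxt Δexon6/+ and Tbxt Δexon6/Δexon6 cells 3 were higher (mt-Atp8, mt-Atp6 and mt-Co3) and 3 lower (mt-Nd1 at -0.71 ± 0.113, mt-Nd6 and mt-Nd2). Of all tested genes 22.9% were higher and 24.2% lower there. For mt-Co1 none of the 3 comparisons passed the test, with changes of 0.03 to 0.31.

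Genes around the chain were taken from 9 lists, 118 tested genes in all, of which 31 were higher and 20 lower in Tbxt Δexon6/Δexon6 cells, 14 and 11 in Tbxt Δexon6/+ cells, and 36 and 31 in Tbxt insASAY/insASAY cells, with medians of 0.04, -0.01 and 0.001. In all 43.2%, 21.2% and 56.8% of them were called, where 35.4%, 31.6% and 47.3% of all tested genes were. Cytochrome c, Cycs, carries electrons from complex III to IV, and it was lower in Tbxt Δexon6/+ cells (-0.26 ± 0.051, adjusted p = 0.00192). It was higher in both homozygous lines, by 0.14 ± 0.050 in each. The adjusted p was 0.0396 in the insertion line and 0.05, under the threshold before rounding, in the homozygous deletion. Cyc1, cytochrome c1 of complex III, which the naming rule does not take in, was lower in both homozygous lines (-0.27 ± 0.052 and -0.27 ± 0.051). Of 33 assembly factors of complexes II to V, 8 were higher and 6 lower, 3 and 7, and 10 and 9 in the same order of lines. Among these Cox17, the copper chaperone of complex IV, was lower in all 3 lines: it had 7.69 and 6.40 CPM in wild-type, 4.58 and 3.15 in homozygous deletion, 2.42 and 2.98 in heterozygous deletion and 3.17 and 2.93 in insertion libraries. The changes were -0.87 ± 0.184, -1.39 ± 0.194 and -1.21 ± 0.188. Uqcc2, which helps to build complex III, was lower in all 3 lines (-0.37, -0.21 and -0.38), while Uqcc3 was higher in the homozygous lines (0.43 and 0.72) and Coa7 was higher in these (0.48 and 0.67) and lower in the heterozygous line (-0.43). Of 9 complex I assembly factors with other names, 1, 1 and 1 were higher and 2, 0 and 3 lower: Tmem126a was higher in every line (0.25, 0.25 and 0.28) and Ecsit was lower in the homozygous lines (-0.34 and -0.47).

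Of 8 regulators of mitochondrial biogenesis, 4 were higher and 2 lower in homozygous deletion, 2 and 0 in heterozygous deletion, and 4 and 1 in insertion cells. In this order 75%, 25% and 62.5% of them were called, where 35.4%, 31.6% and 47.3% of all tested genes were. Nrf1, the factor whose core was searched above, had 44.2 and 46.0 CPM in wild-type and 53.5 to 59.96 in the homozygous lines (0.33 ± 0.065 and 0.39 ± 0.065), and 43.0 and 44.1 in Tbxt Δexon6/+ libraries. Ppargc1b, a coactivator of respiratory genes, had 9.17 and 9.45 CPM in wild-type, 7.04 and 5.54 in homozygous deletion, 20.4 and 18.5 in heterozygous deletion and 5.43 and 4.87 in insertion libraries (-0.57 ± 0.133, 1.06 ± 0.118 and -0.85 ± 0.135). Its relative Ppargc1a was barely detected, at 0 to 0.454 CPM. Ppargc1a was counted as higher in heterozygous deletion, with 12 and 11 reads against 4 and 1 in wild-type. Gabpa was slightly higher in the homozygous lines (0.15 ± 0.055 in each) and Esrra was lower in Tbxt Δexon6/Δexon6 cells (-0.23 ± 0.077, adjusted p = 0.0316).

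The genes that copy and transcribe the mitochondrial genome (16 tested) had 5 higher and 3 lower, 1 and 0, and 7 and 3 in the same order. In all 50%, 6.25% and 62.5% of them were called, where 35.4%, 31.6% and 47.3% of all tested genes were. Tfam, which packages that genome and starts its transcription, had 53.9 and 54.0 CPM in wild-type and 65.9 and 65.0 in Tbxt insASAY/insASAY libraries (0.28 ± 0.052, adjusted p = 0.000805), and it was at 0.13 ± 0.053 in Tbxt Δexon6/Δexon6 (adjusted p = 0.069) and -0.02 ± 0.053 in Tbxt Δexon6/+ cells. Polrmt, the mitochondrial RNA polymerase, was lower in both homozygous lines (-0.38 ± 0.066 and -0.30 ± 0.066), as was the DNA polymerase Polg (-0.27 and -0.48), while the helicase Twnk was higher in both (0.38 and 0.76). Mterf2 was higher in both, from 2.06 and 2.49 CPM in wild-type to 4.01 and 4.47 in Tbxt Δexon6/Δexon6 and 4.99 and 4.57 in Tbxt insASAY/insASAY libraries (0.90 ± 0.174 and 1.07 ± 0.170). Of 16 genes for mitochondrial RNA processing and stability, 6 were higher and 2 lower, 1 and 0, and 7 and 3. The shares called were again 50%, 6.25% and 62.5%. Lrpprc, which stabilises mitochondrial messenger RNAs, was higher in all 3 lines (0.26 ± 0.060, 0.24 ± 0.060 and 0.41 ± 0.059), and Fastkd5, needed to process transcripts that lack flanking transfer RNAs, was higher in Tbxt insASAY/insASAY cells (1.38 ± 0.213, adjusted p = 0.000206).

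Of 18 genes of the tricarboxylic acid cycle and pyruvate dehydrogenase, 3 were higher and 2 lower, 1 and 2, and 2 and 8. The shares called were 27.8% in homozygous deletion, 16.7% in heterozygous deletion and 55.6% in insertion cells. Of all tested genes 35.4%, 31.6% and 47.3% were called in these lines. In Tbxt insASAY/insASAY cells Ogdh (-0.40), Suclg2 (-0.37) and Pdha1 (-0.32) were among the lower ones. Of 8 carriers that supply the chain with ADP and phosphate or pass the outer membrane, 3 were higher and 0 lower, 2 and 1, and 3 and 1. This is 37.5%, 37.5% and 50% called. The ADP/ATP carrier Slc25a4 was higher in Tbxt Δexon6/+ cells (0.39 ± 0.069) and lower in Tbxt insASAY/insASAY cells (-0.35 ± 0.069), and Slc25a5, its widespread relative, was higher in both homozygous lines (0.15 and 0.29). Of 7 genes for other routes of electrons to ubiquinone, 0 were higher and 2 lower, 3 and 0, and 1 and 2. This is 28.6%, 42.9% and 42.9% called. Dhodh, the pyrimidine enzyme that feeds electrons to ubiquinone, had 37.1 and 38.6 CPM in wild-type, 26.7 and 25.9 in homozygous deletion, 50.3 and 50.4 in heterozygous deletion and 28.0 and 31.2 in insertion libraries.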

How the data were processed

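RNA was sequenced from 8 libraries of day 1 differentiated mouse ES cells. The deposited read counts per gene were made by the authors with STAR 2.7.2a against mm10, and each file gave 3 counts per gene, for reads taken without regard to strand and for either strand. Column 4, the reverse-strand count, fits the directional library kit and was used here. Gene identifiers were matched to GENCODE M21 (48058 of 48440). Counts were scaled by TMM (factors 0.975 to 1.03), filtered by filterByExpr (minimum count 10, minimum total 15) and tested in R 4.3.3 with edgeR 4.0.16 by the quasi-likelihood test, all 8 libraries in 1 fit with genotype as the only term, and Benjamini-Hochberg adjustment over 17049 genes. The test was checked on data drawn with known changes. The members and lists were chosen with earlier results of these data known. Genes were named by a rule: every mitochondrial member, the Sdh genes and isoform pairs, and in each line and complex up to 3 rises and 3 falls of largest size among calls with a mean of at least 2 CPM and no overlap with wild-type. From each related list up to 4 genes with the smallest adjusted p, and 9 fixed regulators and cytochrome genes, were named. Other members named beside them were chosen after their values were seen. Nuclear copies were matched from annotated transcripts, and promoters came from RefSeq. Alternatives were DESeq2 1.42.0, its size factors, no filter, unstranded counts, only the genotypes compared, a replicate block, GC and length offsets, copies left out, and each library left out. A second gene identifier named Atp5o was not used here. Each value of a share or level covers counting error and the spread of 2 libraries only. The values of 1 member are not reported here.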

Additional observations from a re-analysis of the deposited data

Results flagged for a closer look

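Some members were called in opposite directions in different lines. The difference between those lines comes from the same fit and largely follows from this choice. Its passing the threshold is therefore no further test, and the differences are given for their size only. mt-Nd1 was higher by 1.46 ± 0.114 (log2 fold change ± SE) in Tbxt insASAY/insASAY than in Tbxt Δexon6/+ cells, and mt-Nd2 by 1.17 ± 0.114, with all libraries of the first line above those of the second. Uqcrfs1, the Rieske protein of complex III, differed by -0.43 ± 0.047 between Tbxt Δexon6/+ and Tbxt Δexon6/Δexon6 cells and by 0.42 ± 0.047 between the insertion and heterozygous lines. Sdha differed by 0.28 ± 0.048 and -0.32 ± 0.048 in the same comparisons, and Ndufa6 by 0.38 ± 0.063 and -0.40 ± 0.063. Cox6a2, at 1.68 to 5.53 CPM, differed by -1.30 ± 0.203 between insertion and heterozygous deletion cells. The calls of Uqcrfs1, Ndufa6 and Cox6a2 in the heterozygous line against wild-type did not hold by DESeq2, and that of Sdha did not hold with unstranded counts. In the homozygous deletion the Ndufa6 call did not hold by DESeq2.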

How the results depend on the processing

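Of 95 called pairs of a named member and a comparison with wild-type, 44 kept the call under every alternative run, and 1 reversed: Atp5d in Tbxt Δexon6/+ cells, at 0.012 with offsets for GC content and length. The cause was not tested for any change below. Counts are called members. By DESeq2 the nuclear count in Tbxt Δexon6/Δexon6 against wild-type was 28 (44 as reported) and the mitochondrial count 0 (2), and the nuclear count between Tbxt insASAY/insASAY and Tbxt Δexon6/Δexon6 was 3 (7). With only the genotypes compared in the fit these were 21, 1 and 2, and the mitochondrial counts against wild-type were 10 (6) in Tbxt Δexon6/+ and 9 (5) in the insertion line, and 11 (7) between these lines. Without the low-count filter the mitochondrial counts against wild-type were 7, 10 and 10 in the homozygous deletion, heterozygous deletion and insertion lines, 10 and 12 in the last 2 against the first, and 11 between the last 2. With GC and length offsets the mitochondrial count in Tbxt Δexon6/Δexon6 was 4. DESeq2 size factors, or leaving out members with copies, gave 4 nuclear calls between the homozygous lines. Leaving out 1 library gave 14 to 54 nuclear and 0 to 7 mitochondrial calls in Tbxt Δexon6/Δexon6, 13 to 15 and 3 to 7 in the heterozygous line and 27 to 32 and 4 to 5 in the insertion line against wild-type. Between lines it gave 27 to 52 and 4 to 7 (Tbxt Δexon6/+ against Tbxt Δexon6/Δexon6), 0 to 17 and 3 to 12 (the homozygous lines) and 32 to 40 and 6 to 11 (Tbxt insASAY/insASAY against Tbxt Δexon6/+). A lone library was then assumed to vary like the other groups. Without the first homozygous deletion clone 7 mitochondrial members were called against wild-type and 12 against Tbxt insASAY/insASAY. Without the first Tbxt Δexon6/+ library 3 were called against wild-type, without the second 11 against Tbxt insASAY/insASAY, and without the first Tbxt insASAY/insASAY library 3 against Tbxt Δexon6/Δexon6. The nuclear share, per reads on nuclear genes, was 1.32%, 1.33% and 1.29% in wild-type, heterozygous and insertion libraries, and in the last 2 it was 1.30% and 1.25% by unstranded counts. Same-numbered libraries did not deviate together (correlations of -0.1 to 0.067), so the numbers do not pair them, and with the replicate block the nuclear counts against wild-type were 41, 25 and 43.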
